A study of Homo sapiens with 2 samples.

Results

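Messenger RNAs of the aminoacyl-tRNA synthetases were compared between C4-2B cells given 2.5 µM MA4-022-1 and C4-2B cells given the vehicle DMSO. The genes were 20 synthetases of the cytosol, 16 of mitochondria with names ending in 2, and 3 scaffold proteins of the cytosolic multi-synthetase complex. Members were taken by symbol, also where a row joined the symbol with others, which gave 39 of 47246 gene names in the tables, where 15443 were expressed. All 39 were at 1 RPKM or more in both libraries. C4-2B is an androgen-independent prostate cancer line that models bone-metastatic, castration-resistant disease, and per the labels MA4-022-1 inhibits both BET bromodomain proteins and kinases. Each group held 1 library of total RNA depleted of ribosomal RNA, so the differences could not be checked against replicates and are described without p-values. How long the cells were exposed, and whether they came from separate cultures, is not stated in the labels.

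A synthetase joins an amino acid to its tRNA, which makes the substrate of the ribosome. Cytosolic and mitochondrial ribosomes draw on separate sets of enzymes, nearly all encoded by separate nuclear genes, while GARS and KARS each serve both compartments. Many cytosolic synthetase genes are known targets of ATF4, the transcription factor that amino acid shortage and other stresses induce, and several are also described as targets of MYC. The 3 scaffold proteins AIMP1, AIMP2 and EEF1E1 hold a group of the cytosolic enzymes together in one particle.

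All 11 markers of the prostate line were at 31.7 RPKM or more with MA4-022-1 and 34.8 RPKM or more in DMSO. Among them, KLK3 and KLK2 were read from a joint row and had the same values. Of 10 markers of other cell types, 5 were listed at 0 in both libraries. PTPRC stood at 0.192 RPKM with MA4-022-1 and 0.0209 RPKM in DMSO, and CD3E at 0.0677 RPKM with MA4-022-1 and 0.0339 RPKM in DMSO. COL1A2, a further collagen among the 10, stood at 0.0183 RPKM with MA4-022-1 and 0.00707 RPKM in DMSO. COL1A1, a collagen of fibroblasts, stood at 5.03 RPKM with MA4-022-1 and 1.19 RPKM in DMSO, and the high value under CD68 belonged to a row joined with the translation factor EIF4A1. The part of COL1A1-expressing cells in the results was not tested. From the steps between low values, totals of 19917773 reads with MA4-022-1 and 27078519 in DMSO were estimated, below the sequencing depth that the labels state. A single read over 2000 nt was then equal to 0.0251 RPKM with MA4-022-1 and 0.0185 RPKM in DMSO. RPKM scales reads by transcript length and library total. Each log2 ratio sets MA4-022-1 over DMSO after 1 RPKM was added to both, and folds come from these ratios, so that folds of weakly expressed genes are damped. Whether a lower value came from fewer cells with the RNA or from less of it per cell cannot be told apart.

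Sequence before the start is shown for 5 of the 7 members with a match to a searched motif, and for the pair HARS and HARS2, which start back to back. The RefSeq promoter table (GRCh38.p14) held 33 of the 39 members, and DARS, LARS, VARS, YARS, AARS2 and VARS2 were not among them. The 250 bases before each start were searched on both strands for TGATGNAA, the core of the element that C/EBP and ATF4 dimers bind, and for CACGTG, the E-box of MYC and other factors. TGATGNAA lay before 3 of 16 cytosolic and 1 of 14 mitochondrial genes, against 3.89% of the 27305 genes in the table. CACGTG lay before 1 cytosolic gene, 2 mitochondrial genes and 1 scaffold gene, against 7.73% of all genes. No matches overlapped. A match is a description of letters and not of binding, and the short window says nothing of sites elsewhere. Capitals mark the motifs, and the TGATGNAA matches of AARS, IARS and GARS lie on the opposite strand to the one printed.
AARS, chr16:70289507-70289756, minus strand: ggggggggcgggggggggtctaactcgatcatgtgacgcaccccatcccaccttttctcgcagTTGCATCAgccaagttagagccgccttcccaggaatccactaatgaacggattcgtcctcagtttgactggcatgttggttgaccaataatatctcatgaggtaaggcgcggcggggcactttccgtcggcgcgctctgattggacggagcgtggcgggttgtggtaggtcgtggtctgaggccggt
IARS, chr9:92293698-92293947, minus strand: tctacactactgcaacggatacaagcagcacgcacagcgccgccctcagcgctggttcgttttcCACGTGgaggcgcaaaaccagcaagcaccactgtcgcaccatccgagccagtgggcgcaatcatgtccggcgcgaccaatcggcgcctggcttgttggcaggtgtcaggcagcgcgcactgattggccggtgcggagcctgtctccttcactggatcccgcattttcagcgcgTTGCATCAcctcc
GARS, chr7:30594834-30594863, plus strand: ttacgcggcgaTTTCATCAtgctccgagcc
YARS2, chr12:32755898-32756147, minus strand: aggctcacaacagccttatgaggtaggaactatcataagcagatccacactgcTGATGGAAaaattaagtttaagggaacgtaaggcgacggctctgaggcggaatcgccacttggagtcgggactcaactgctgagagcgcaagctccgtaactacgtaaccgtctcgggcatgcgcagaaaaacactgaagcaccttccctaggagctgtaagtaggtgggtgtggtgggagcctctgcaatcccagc
MARS2, chr2:197705119-197705368, plus strand: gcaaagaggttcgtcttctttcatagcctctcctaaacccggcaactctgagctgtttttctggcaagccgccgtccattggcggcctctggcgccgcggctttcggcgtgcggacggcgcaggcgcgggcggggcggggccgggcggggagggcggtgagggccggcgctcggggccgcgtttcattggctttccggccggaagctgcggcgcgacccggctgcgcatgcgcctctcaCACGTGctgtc
HARS2 to HARS, chr5:140691371-140691454, plus strand: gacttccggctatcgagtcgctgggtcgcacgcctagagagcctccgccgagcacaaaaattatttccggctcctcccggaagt

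AARS, IARS and GARS, the cytosolic genes with TGATGNAA, are on the list of ATF4 targets, of which 3 of the 10 in the table held the motif. MARS, TARS, CARS and EPRS, which had 4 of the 5 lowest ratios, held neither motif in their windows. The first base of the match lay at -187 in AARS, -13 in IARS and -33 in GARS, counted from -1 at the last base before the start. GARS has a further start upstream, and its match lies wholly downstream of that start. The position of -33 is counted from the later start, and only 30 bases around the match are shown. IARS also held CACGTG, at -186, and MARS2 held it at -11. In YARS2 the TGATGNAA match was at -197. The other CACGTG matches, not shown, lay at -15 in EARS2 and -75 in AIMP2, which both have a further start upstream. Between the starts of HARS2 and HARS, which run in opposite directions, lie 84 bases with no match to either motif.

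Cytosolic synthetase messages were lower with MA4-022-1 in 19 of 20 cases. Their median log2 ratio was -0.86, against -0.02 over 15443 expressed genes and -0.10 over 9839 expressed protein-coding genes. Lower values were found in 7895 of these 15443 genes and in 5486 of these 9839. Of the 20 genes, 5 were at least 2-fold lower, where 9.58% of all expressed genes were at least 2-fold lower, and none was at least 2-fold higher, where 7.73% of all were. At 1.5-fold, 13 of 20 were lower and none higher, against 20.7% lower and 18.8% higher among all expressed genes. Over all 39 members the counts were 5 at least 2-fold lower, or 12.8%, and none higher, where expressed protein-coding genes had 9.49% lower and 4.12% higher. At 1.5-fold, 17 of 39 were lower and none higher, where protein-coding genes had 21.9% lower and 13.2% higher. Summed over the 20 genes, the level was 1905 RPKM with MA4-022-1 and 3294 RPKM in DMSO. Among protein-coding genes at a mean of 20 RPKM or more, nearer the level of these enzymes, 2-fold lower values were found in 8.33% and 2-fold higher values in 2.9%, and 1.5-fold lower values in 20.5% and higher in 10.0%. With housekeeping controls set to 0 in log2 ratio, 5 cytosolic genes stood beside 7.49% of expressed genes lower and 9.99% higher, and with equal sums 9 cytosolic genes beside 11.5% lower and 6.25% higher.

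MARS, which charges methionine for initiation and elongation and sits in the multi-synthetase complex, stood at 50.6 RPKM with MA4-022-1 and 145 RPKM in DMSO. It was 2.83-fold lower, the lowest ratio of the 39 genes, and the plain RPKM ratio was 0.348 with a 95% counting interval from 0.310 to 0.391. Its locus on hg19 (chromosome 12, 57853918 to 57914300) also holds the stress gene DDIT3, whose exons overlap those of MARS in GENCODE release 29 and which stood at 90.3 RPKM with MA4-022-1 and 77.7 RPKM in DMSO. Whether counting used the strand is not stated in the labels, so reads of the overlap cannot be assigned to either gene. YARS, the tyrosine enzyme, stood at 40.9 RPKM with MA4-022-1 and 108 RPKM in DMSO, or 2.59-fold lower (chromosome 1, 33240840 to 33324476). The counting interval of its plain ratio, 0.381, was 0.350 to 0.413, and its exons overlap those of S100PBP.

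TARS, the threonine enzyme, was the most abundant member in DMSO. It stood at 168 RPKM with MA4-022-1 and 417 RPKM in DMSO, 2.47-fold lower, with a counting interval of the plain ratio from 0.383 to 0.425 (chromosome 5, 33440802 to 33469644). No other row was listed at its locus. CARS, the cysteine enzyme, stood at 23.8 RPKM with MA4-022-1 and 57.0 RPKM in DMSO, 2.34-fold lower, with an interval from 0.384 to 0.452, and its exons overlap those of the antisense gene CARS-AS1. EPRS carries the glutamate and the proline enzyme in one chain and is part of the complex. It stood at 91.6 RPKM with MA4-022-1 and 211 RPKM in DMSO, 2.29-fold lower, with an interval from 0.411 to 0.458 (chromosome 1, 220141943 to 220220000). These 5 genes made up the set beyond 2-fold, and for each the counting interval lay wholly below 0.5. EPRS and TARS were the 2 of them whose exons overlap no other gene in GENCODE release 29, and the part of overlapping genes in the other values was not tested.

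Just short of 2-fold were WARS, LARS and IARS. WARS, the tryptophan enzyme, which interferon also induces, stood at 51.5 RPKM with MA4-022-1 and 102 RPKM in DMSO, a log2 ratio of -0.98. LARS, the leucine enzyme and a sensor of leucine for mTORC1, stood at 94.6 RPKM with MA4-022-1 and 186 RPKM in DMSO. IARS, the isoleucine enzyme, stood at 111 RPKM with MA4-022-1 and 214 RPKM in DMSO. The counting intervals of their plain ratios all held 0.5. They ran from 0.447 to 0.566 for WARS, 0.468 to 0.553 for LARS and 0.489 to 0.551 for IARS. GARS, at 71.8 RPKM with MA4-022-1 and 135 RPKM in DMSO, had an interval from 0.489 to 0.582 that also held 0.5. Reads were estimated from median transcript lengths of 579.5 nt for WARS, 620.5 nt for LARS, 887 nt for IARS and 702.5 nt for GARS. Longer lengths would narrow these intervals, so they do not settle on which side of 2-fold the 4 genes lie. GARS, SARS and NARS, for glycine, serine and asparagine, had log2 ratios of -0.90, -0.87 and -0.85. In both libraries NARS and SARS were rank 2 and rank 3 by level. NARS stood at 205 RPKM with MA4-022-1 and 372 RPKM in DMSO, and SARS at 168 RPKM with MA4-022-1 and 309 RPKM in DMSO.

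**Figure D1:**
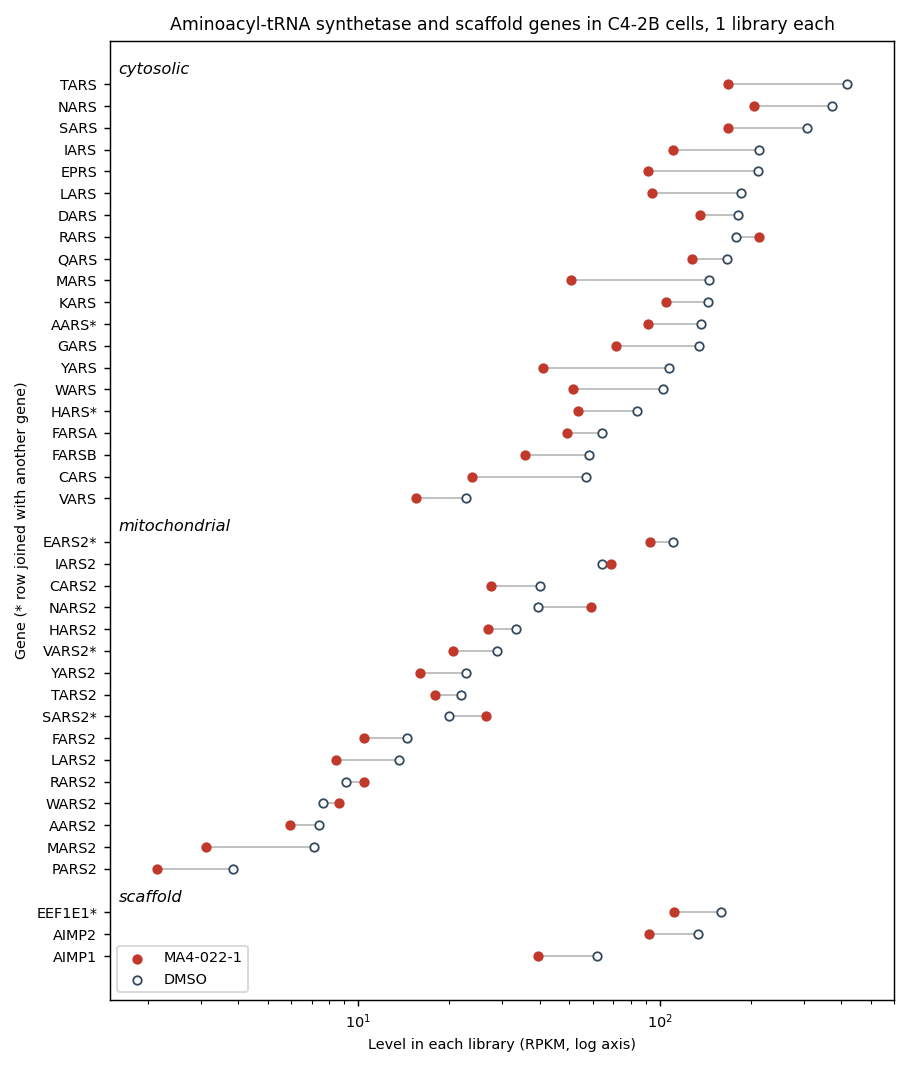
Level of each gene in RPKM on a log axis, with a filled point for the MA4-022-1 library and an open point for the DMSO library, 1 library each. Cytosolic genes are at the top, mitochondrial genes in the middle and scaffold genes at the bottom, in order of their DMSO level. The filled point lies to the left for 33 of 39 genes, where 7895 of 15443 expressed genes were lower with MA4-022-1.

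The remaining cytosolic enzymes differed less. FARSB and FARSA, the chains of the phenylalanine enzyme, had log2 ratios of -0.70 and -0.39, at 35.6 and 49.2 RPKM with MA4-022-1 against 58.4 and 64.6 RPKM in DMSO. HARS, the histidine enzyme, shared its row with DND1 and stood at 53.4 RPKM with MA4-022-1 and 84.3 RPKM in DMSO. AARS, the alanine enzyme, shared its row with the exosome gene EXOSC6 and stood at 91.6 RPKM with MA4-022-1 and 137 RPKM in DMSO. VARS, the valine enzyme, had the lowest level of the 20, with 15.6 RPKM with MA4-022-1 and 22.7 RPKM in DMSO, and its 6 rows on alternative haplotypes of chromosome 6 were listed at 0.

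KARS, DARS and QARS, for lysine, aspartate and glutamine, are all held in the complex and had log2 ratios of -0.45, -0.42 and -0.38. RARS, the arginine enzyme of the complex, was the 1 cytosolic member with a higher value. It stood at 214 RPKM with MA4-022-1 and 180 RPKM in DMSO, and the counting interval of its plain ratio, 1.19, was 1.12 to 1.27. Its locus (chromosome 5, 167913450 to 167946304) listed no other row. In order of level it was rank 1 of the 39 with MA4-022-1 and rank 8 in DMSO, while TARS was rank 4 with MA4-022-1 and rank 1 in DMSO.

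The 13 cytosolic enzymes described as ATF4 targets in mammalian cells had a lower median than the 7 others. The ATF4 targets had a median log2 ratio of -0.97, with MARS lowest and VARS highest at -0.52, and all 5 genes beyond 2-fold were among them. The others, DARS, FARSA, FARSB, HARS, KARS, QARS and RARS, had a median of -0.42 and a range from -0.70 to 0.25. Of the 13, 11 lay below the lowest of the 7, which was FARSB, and the exceptions were AARS and VARS. This list was written from general knowledge with earlier results of these libraries known, so it is no independent support. Without members whose exons overlap another gene, the median was -0.87 for the 7 ATF4 targets left, and the 2 others left were FARSB at -0.70 and RARS at 0.25. ATF4 itself stood at 271 RPKM with MA4-022-1 and 521 RPKM in DMSO, a log2 ratio of -0.94. MYC stood at 33.7 RPKM with MA4-022-1 and 78.5 RPKM in DMSO, 2.29-fold lower.

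**Figure D2:**
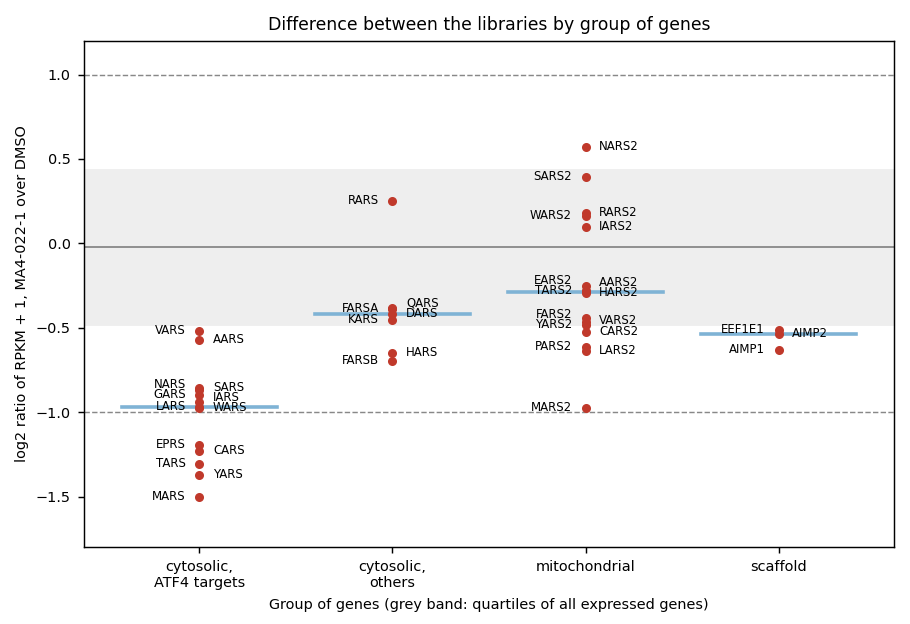
Log2 ratio of RPKM + 1, MA4-022-1 over DMSO, for each gene by group; the thick line is the median of a group, the grey line and band are the median and quartiles of all expressed genes, and dashed lines mark 2-fold. The ATF4 targets centre on -0.97, the other cytosolic enzymes on -0.42, the mitochondrial enzymes on -0.29 and the scaffold genes on -0.54.

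The cytosolic enzymes were also divided by membership of the complex. The 8 enzymes of the complex had a median of -0.70 with both the lowest ratio (MARS) and the highest (RARS) of the cytosolic set. The 12 outside it had a median of -0.86, from -1.37 to -0.39. Without members whose exons overlap another gene the order of the medians turned, with -0.94 for the 3 left in the complex and -0.78 for the 6 left outside it. The scaffold proteins lay close together. AIMP1 stood at 39.5 RPKM with MA4-022-1 and 61.7 RPKM in DMSO, and AIMP2 at 92.3 RPKM with MA4-022-1 and 134 RPKM in DMSO, log2 ratios of -0.63 and -0.54. EEF1E1 had only a row joined with BLOC1S5, TXNDC5 and read-through names, at 112 RPKM with MA4-022-1 and 160 RPKM in DMSO. By structural class, the 10 enzymes of class I, with a Rossmann fold, had a median of -0.97 and 4 members at least 2-fold lower, and the 10 of class II a median of -0.67 and 1 such member, TARS, beside 9.58% of all expressed genes. EPRS was counted in class I for its glutamate enzyme, and with its proline enzyme counted in class II as well, that class had 2 such members of 11 and a median of -0.70.

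Mitochondrial synthetase messages differed less between the libraries and went both ways. Their median log2 ratio was -0.29 over 16 genes, from -0.98 to 0.57, with 11 below 0 and 5 above. Among all expressed genes, 7895 of 15443 were below 0, and among protein-coding genes 5486 of 9839. None of the 16 passed 2-fold in either direction, where 9.58% of all expressed genes were lower and 7.73% higher. At 1.5-fold, 3 of 16 were lower, near the 20.7% of all expressed genes, and none was higher, where 18.8% were. Their levels were also lower than those of the cytosolic set, with a median of 16.9 RPKM with MA4-022-1 and 21.0 RPKM in DMSO, against 91.6 RPKM with MA4-022-1 and 145 RPKM in DMSO for the cytosolic genes.

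MARS2, the mitochondrial methionine enzyme, had the lowest ratio of the set. It stood at 3.13 RPKM with MA4-022-1 and 7.12 RPKM in DMSO, 1.97-fold lower on the scale of RPKM + 1 and with a plain ratio of 0.439, whose counting interval ran from 0.368 to 0.521. LARS2, for leucine, stood at 8.41 RPKM with MA4-022-1 and 13.6 RPKM in DMSO, and PARS2, for proline, at 2.15 RPKM with MA4-022-1 and 3.83 RPKM in DMSO. CARS2, YARS2 and FARS2, for cysteine, tyrosine and phenylalanine, had log2 ratios of -0.52, -0.48 and -0.44. HARS2, TARS2 and AARS2, for histidine, threonine and alanine, had ratios of -0.30, -0.28 and -0.28. VARS2 and EARS2 shared rows with GTF2H4 and GGA2, which gave log2 ratios of -0.46 and -0.25 for the joint rows.

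NARS2, the mitochondrial asparagine enzyme, had the highest ratio of all 39 genes. It stood at 58.9 RPKM with MA4-022-1 and 39.3 RPKM in DMSO, 1.49-fold higher, and the counting interval of the plain ratio was 1.34 to 1.68. Its locus (chromosome 11, 77926343 to 78285919) also holds GAB2, and NARS2 exons overlap those of the antisense gene AP003086.2. SARS2, for serine, was read from a row joined with FBXO17, at 26.5 RPKM with MA4-022-1 and 19.9 RPKM in DMSO. IARS2, RARS2 and WARS2, for isoleucine, arginine and tryptophan, had log2 ratios of 0.09, 0.18 and 0.16. Their counting intervals of the plain ratio all held 1. They were the 3 such genes among the 39, with 33 intervals below 1 and 3 above it. Intervals were not computed for all expressed genes, so these counts have no share to stand beside. Reads were estimated from median transcript lengths of 613 nt for IARS2, 645 nt for RARS2 and 895 nt for WARS2. Longer lengths would narrow the intervals, so they do not settle whether these 3 genes differed.

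The cytosolic and mitochondrial sets differed by -0.57 in median log2 ratio, cytosolic minus mitochondrial. Of the 20 cytosolic ratios, 19 lay below the mitochondrial median and 6 below the lowest mitochondrial ratio, and the ratios had an SD of 0.42 within each set. The genes are no replicates of a condition, so that SD describes the spread among genes. Without the 23 members whose exons overlap another gene, an alternative chosen after seeing the data, the difference of medians was -0.37, with -0.85 for the 9 cytosolic and -0.48 for the 7 mitochondrial genes that were left. For 17 pairs of enzymes of the same amino acid, in which EPRS and FARS2 were each used with 2 partners, the cytosolic gene had the lower ratio in 15. The counting interval of the difference lay below 0 in 13 pairs and held 0 in 4. For AARS and AARS2, where AARS was read from a joint row, it ran from -0.515 to 0.004. Reads were estimated from median transcript lengths, for joint rows that of the member alone. Longer lengths would narrow the intervals, so they do not settle the 4 pairs.

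The widest gaps were those of asparagine and serine. NARS and NARS2 differed by -1.43, with log2 ratios of -0.85 and 0.57, and SARS and SARS2 by -1.26, with -0.87 and, from a joint row, 0.39. The tryptophan, isoleucine and threonine pairs differed by -1.14, -1.03 and -1.02. Exons of NARS2, SARS2, WARS, WARS2 and TARS2 overlap those of other genes. The part of those genes in the gaps was not tested. In level, NARS was 3.48 times the RPKM of NARS2 with MA4-022-1 and 9.46 times in DMSO, and WARS was 5.95 times that of WARS2 with MA4-022-1 and 13.4 times in DMSO. The pairs in which the cytosolic ratio was not lower were RARS with RARS2, at 0.25 and 0.18, and FARSA with FARS2, at -0.39 and -0.44. Among the 12 pairs without a joint row, the cytosolic gene was the lower in 10.

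**Figure D3:**
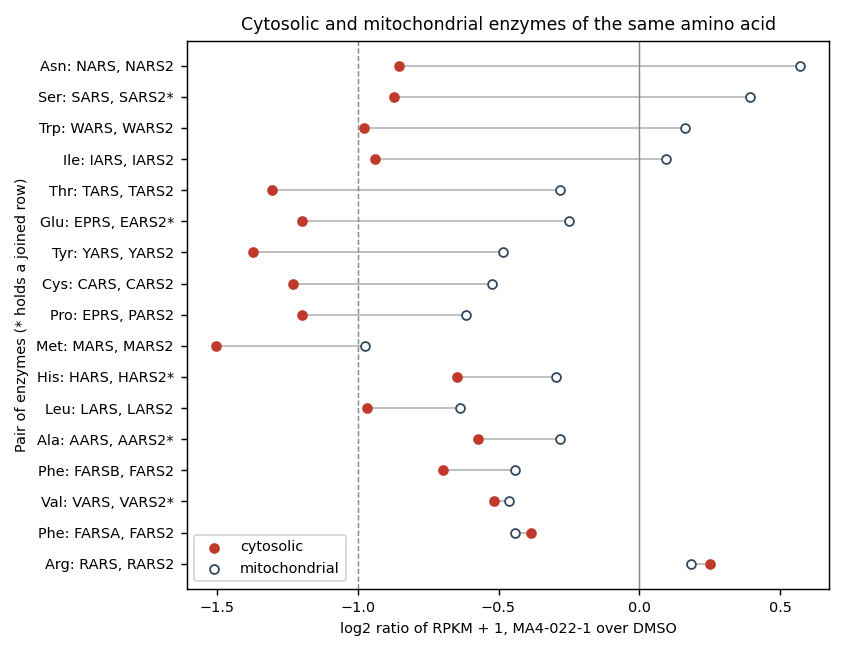
Log2 ratio of RPKM + 1, MA4-022-1 over DMSO, of the cytosolic enzyme (filled) and the mitochondrial enzyme (open) of each amino acid, ordered by the gap between them; the dashed line marks 2-fold lower. The cytosolic point lies to the left in 15 of 17 pairs, with the widest gap for asparagine at -1.43.

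Other genes that work with charged tRNAs were set beside the synthetases by lists. Amino acid response genes other than synthetases, among them transporters and enzymes of serine and proline synthesis, centred on -0.96, the median of 34 expressed members. The 34 ran from -1.87 to 1.22, with 27 below 0 and 7 above. At 2-fold, 16 of the 34, or 47.1%, had a lower level and 2 a higher one. Among all expressed genes 9.58% were lower and 7.73% higher. The 2 were ATF5, at 16.1 RPKM with MA4-022-1 and 6.36 RPKM in DMSO, and SLC38A2, at 310.3 RPKM with MA4-022-1 and 144 RPKM in DMSO. Both were named after their values were seen. TRIB3, a pseudokinase that restrains ATF4, stood at 11.8 RPKM with MA4-022-1 and 45.8 RPKM in DMSO. NUPR1, a stress-induced chromatin protein, stood at 113 RPKM with MA4-022-1 and 364 RPKM in DMSO. PYCR1, of proline synthesis, was read from a row joined with MYADML2, at 98.6 RPKM with MA4-022-1 and 319 RPKM in DMSO.

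Genes of tRNA processing, export and modification in the nucleus and cytosol had a median of -0.36 over 44 expressed members, with 6 at least 2-fold lower, or 13.6%, and none higher, beside 9.58% lower and 7.73% higher among all expressed genes. XPOT, the exportin that carries tRNA out of the nucleus, stood at 157 RPKM with MA4-022-1 and 412 RPKM in DMSO, 2.61-fold lower. ADAT2, of the deaminase that makes inosine in anticodons, stood at 2.36 RPKM with MA4-022-1 and 7.18 RPKM in DMSO. POP7, a subunit of RNase P, stood at 19.8 RPKM with MA4-022-1 and 46.0 RPKM in DMSO. The list of selenocysteine, editing and related factors had a median of -0.64 over 9 members. PRORSD1P, named after its value was seen, was the 1 at least 2-fold lower, or 11.1%, at 1.16 RPKM with MA4-022-1 and 4.40 RPKM in DMSO. YRDC, which helps to make a modified adenosine of tRNA, and PSTK, of selenocysteine tRNA synthesis, were 1.76-fold and 1.68-fold lower, and the row that names AARSD1, an editing protein for alanyl-tRNA, was 1.75-fold lower.

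Mitochondrial translation factors and tRNA modifiers had a median of -0.36 over 22 members, 2 of them at least 2-fold lower, or 9.09%, close to the 9.58% of all expressed genes. QRSL1, of the amidotransferase that makes glutaminyl-tRNA in mitochondria without a synthetase of its own, stood at 11.1 RPKM with MA4-022-1 and 27.3 RPKM in DMSO. MTIF2, an initiation factor, stood at 22.3 RPKM with MA4-022-1 and 48.3 RPKM in DMSO, and the joint row of the elongation factor TSFM was 1.92-fold lower. Cytosolic initiation factors had a median of -0.46 over 33 members, with 1 at least 2-fold lower, or 3.03%, and 1 higher. Among all expressed genes 9.58% were lower and 7.73% higher. EIF2S2 and EIF2S1, subunits of the factor that brings the initiator tRNA, stood at 31.7 and 141 RPKM with MA4-022-1 against 66.1 and 282 RPKM in DMSO. EIF4G2, a scaffold of non-canonical initiation, was the higher one, at 13530 RPKM with MA4-022-1 and 4583 RPKM in DMSO. Cytosolic elongation and release factors had a median of -0.18 over 12 members, 2 of them at least 2-fold lower, or 16.7%, beside the same 9.58%. EIF5A, which eases the joining of prolines, was 2.69-fold lower, the ribosome recycling factor ABCE1 was 2.06-fold lower, and the release factor ETF1 stood at 35.3 RPKM with MA4-022-1 and 71.5 RPKM in DMSO. The 15 housekeeping controls had a median of -0.12, with none at least 2-fold lower and 2 higher, beside 9.58% lower and 7.73% higher among all expressed genes. The 2 controls were POLR2A, the large subunit of RNA polymerase II, at 31.8 RPKM with MA4-022-1 and 10.1 RPKM in DMSO, and B2M, at 1853 RPKM with MA4-022-1 and 883 RPKM in DMSO. PGK1 stood at 403 RPKM with MA4-022-1 and 619 RPKM in DMSO.

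**Figure D4:**
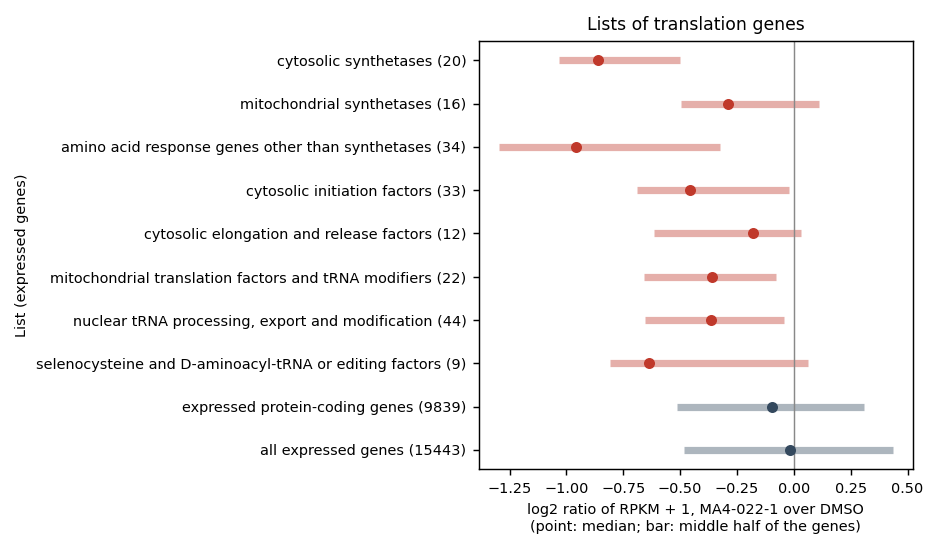
Median (point) and quartiles (bar) of the log2 ratio of RPKM + 1, MA4-022-1 over DMSO, for lists of translation genes, with the number of expressed genes in brackets. Cytosolic synthetases at -0.86 and the other amino acid response genes at -0.96 have the lowest medians of the lists drawn, and all expressed genes centre on -0.02.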

How the data were processed

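ScriptSeq libraries of RNA without ribosomal RNA were sequenced as single reads, per the labels' protocols. The build hg19 and the tools TopHat2 2.0.13 and Cufflinks 2.2.1 are named in the submitters' processing notes. The authors deposited 1 table per library with RPKM per gene and locus, per the file headers, so no count test was run. Of 62271 rows, 2751 without a symbol were left out, as were short RNA symbols. Rows of a symbol were summed, joint rows that name a member included, which concerned 6 members. Deposited starts count from 0 and are printed plus 1.

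Genes at 1 RPKM or more in a library counted as expressed, with a pseudocount of 1 and a threshold of 2-fold. Totals of reads were fitted to the steps of processed pseudogenes of 600 to 6000 nt: 170 of 195 values of up to 5 reads with MA4-022-1, or 87.2%, and 224 of 255 in DMSO, or 87.8%, lay within 2% of a whole step. Reads of a gene were estimated from these totals and the median transcript length in GENCODE release 29. For MARS that length was 575 nt, as short transcripts enter the median. It was similar for others, such as WARS at 579.5 nt and IARS2 at 613 nt. A longer length would give more reads and a narrower interval. Exact binomial intervals at 95% of the RPKM ratio, and normal intervals of its difference within pairs, cover counting error only. PCR reads without molecular identifiers are not independent molecules.

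Python 3.11.15, numpy 2.4.6, pandas 2.3.3, scipy 1.17.1 and matplotlib 3.10.9 were used. Only the 2-fold call was tested on simulated reads, of genes of equal length. The read totals, intervals and motif search were not tested in this way. The members and lists were chosen with earlier results of these data known. Genes named were every member, ATF4, MYC and, per other list, the 3 of largest ratio with at least 5 RPKM in a library. Other genes named share a row or locus with a member, are markers or, for ATF5, SLC38A2 and PRORSD1P, were named after their values were seen. Alternatives were other pseudocounts, filters, scalings, rows and a threshold of 1.5-fold.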

Additional observations from a re-analysis of the deposited data

How the results depend on the processing

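With 1 library per group no replicate could be left out, and p-values and replicate spread were not available. No paired analysis was possible because each group held 1 library. Of the medians of the sets and their difference, none changed sign under the alternatives run. The cytosolic median ran from -0.97 to -0.75, the mitochondrial median from -0.48 to -0.17 and their difference from -0.60 to -0.37. The value subtracted from every log2 ratio was -0.02 to set expressed genes to 0, -0.12 for housekeeping controls and 0.10 for equal sums. With housekeeping controls at 0 the median of the ATF4 targets was -0.85, and 5 cytosolic genes were at least 2-fold lower, against 7.49% of all expressed genes. With equal sums, 9 cytosolic genes, 1 mitochondrial gene and 10 of the 39 were at least 2-fold lower, against 11.5% of all expressed genes, with WARS, LARS, IARS, GARS and MARS2 added. With a pseudocount of 0.1, 1 mitochondrial gene, MARS2, passed it. At 1.5-fold, 13 cytosolic, 3 mitochondrial and 17 of all members were lower. Leaving out the 23 members whose exons overlap another gene, chosen after seeing the data, left 2 cytosolic genes at least 2-fold lower, EPRS and TARS, which were also the 2 of all members, and this alternative holds fewer genes. It also turned the order of the medians of enzymes in and outside the complex, to -0.94 and -0.78. No member was at least 2-fold higher under any alternative run. The sign of IARS2 turned with equal sums, to -0.01. Estimated reads ran from 92 to 3404 per gene with MA4-022-1 and from 110 to 8498 in DMSO, which sets the width of the intervals.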

Other observations

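EPRS and IARS2, neighbours on chromosome 1 whose deposited loci lie 47435 bases apart on hg19, went apart, with log2 ratios of -1.20 and 0.09. HARS and HARS2, whose starts are 84 bases apart, both had lower values with MA4-022-1, at -0.65 for the row shared with DND1 and -0.30. Their exons overlap each other, so reads of the overlap cannot be assigned to either gene. Both arginine enzymes, RARS and RARS2, were among the 6 members with a value above 0, although the counting interval of the RARS2 ratio held 1. Of the 39 members, 29 had further named rows at their deposited locus, and the part of those neighbours in the values was not tested. These were picked after their values were seen and are given as values only.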
